A study of Mus musculus with 16 samples.

Results

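The 10 genes described here are receptors for gut and metabolic signals that are known from vagal afferents: *Glp1r*, *Cckar*, *Gpr65*, *Npy2r*, *Lepr*, *Ghsr*, *Cnr1*, *Sctr*, *Agtr1a* and *Mc4r*. They were taken by gene symbol from the 22609 symbols of the count tables, and all 10 symbols were present. The tables come from sensory neurons sorted in 2 cycles by fluorescence from 4 kinds of ganglia, with 4 libraries for each and 16 in all. The ganglia were the trigeminal ganglion (TG), the joined nodose and jugular ganglia (NG/JG), the lumbar dorsal root ganglia L3–L5 (L3–L5 DRG) and the thoracolumbar dorsal root ganglia T10-L1 (T10-L1 DRG). All mice were naive C57BL/6J animals of 8 to 12 weeks, labelled male, that carried a *Pirt*-cre allele and a Cre-dependent tdTomato allele at Rosa26 (*Pirt*/TdTomato mice). No group received a treatment, and TdTomato marked the cells in which *Pirt*, a gene of most sensory neurons, had driven Cre. The sort kept cells of medium to strong TdTomato signal, NG/JG joins placode-derived nodose with neural crest-derived jugular neurons, and how many animals stand behind a library is not given in the sources used here.

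Vagal afferents have their cell bodies in NG/JG and carry chemical and mechanical signals from the gut, heart and airways to the brainstem. Satiety peptides released by enteroendocrine cells act on them: cholecystokinin through *Cckar*, peptide YY through *Npy2r*, glucagon-like peptide-1 through *Glp1r* and secretin through *Sctr*, while the stomach hormone ghrelin acts through *Ghsr*. *Lepr* binds leptin from fat, *Mc4r* binds melanocortins, *Cnr1* binds endocannabinoids, *Agtr1a* binds angiotensin II and *Gpr65* senses protons. All but *Lepr*, a cytokine receptor, are G protein-coupled receptors. Somatic and visceral spinal afferents lie in the dorsal root ganglia, and those of the head in TG.

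Libraries held 4735624 to 13333318 reads on genes, and 3 reads, the floor used here, corresponded to 0.225 to 0.6335 CPM, the counts scaled to 1000000 reads on genes. Without molecular identifiers, such a floor reflects counting error alone. Fewer genes had reads in NG/JG, with 10132 to 13029 per library, than in L3–L5 DRG with 13617 to 18571 and T10-L1 DRG with 14237 to 16694, and TG had 11527 to 15354. Of the nodose markers, the serotonin receptor gene *Htr3a* had 1037 to 7262 reads in the NG/JG libraries and 4 to 2318 in the others, and *Efcab6* had 60 to 827 against at most 19. Of all 7 nodose markers, 4 (in NG/JG 4) to 7 were over the floor in an NG/JG library. Their summed level was 428 to 2391 CPM in NG/JG and 1.27 to 231 CPM in the others. The 6 jugular markers summed to 17.4 to 237 CPM in NG/JG and to 252 to 3077 CPM in the others. Pan-neuronal genes such as *Snap25* and *Tubb3* were present in every library, but Schwann cell markers were present too, with a summed level of 8011 to 53596 CPM over 6 genes against 866 to 11087 CPM over 10 sensory neuron markers. The libraries went against their sex label: *Xist* had 1279 to 8362 reads and 13 genes of chromosome Y had 0 reads in all 16. A pair of libraries was doubted. L3–L5 DRG 4 had the fewest reads on genes and 66.6% of its uniquely aligned reads outside genes, and TG 1 had the fewest genes with reads of its ganglion. NG/JG 4 was not put in this pair, though it had the fewest genes with reads of all 16 libraries, 10132 against 11527 in TG 1.

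The receptors were low and uneven. Of the 16 libraries, *Gpr65* and *Cnr1* were over the floor in 13, *Cckar* and *Agtr1a* in 12, *Npy2r* and *Lepr* in 10, *Sctr* and *Mc4r* in 4, *Glp1r* in 2 and *Ghsr* in 1. Per length, as CPM per 1000 bases of exon (RPKM), the 4 highest mean levels in NG/JG were 11.4 ± 15.7 (SD, n = 4) for *Cckar*, 10.9 ± 18.2 for *Gpr65*, 9.81 ± 10.7 for *Npy2r* and 2.45 ± 2.03 for *Cnr1*. *Gpr65* and *Agtr1a* led in T10-L1 DRG at 19.8 ± 33.3 and 13.8 ± 5.81 RPKM, and *Agtr1a* and *Gpr65* in L3–L5 DRG at 11.9 ± 5.43 and 10.4 ± 15.5 RPKM. In TG the leading RPKM means were 7.49 ± 7.14 for *Gpr65* and 1.62 ± 1.10 for *Agtr1a*. The SD reached or passed the mean for *Cckar*, *Gpr65* and *Npy2r* in NG/JG and for *Gpr65* in both dorsal root ganglia. The means therefore do not settle the order of these 3 in NG/JG, or of *Gpr65* and *Agtr1a* in the dorsal root ganglia. Differences between receptors within the same libraries were not tested.

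**Figure D1:**
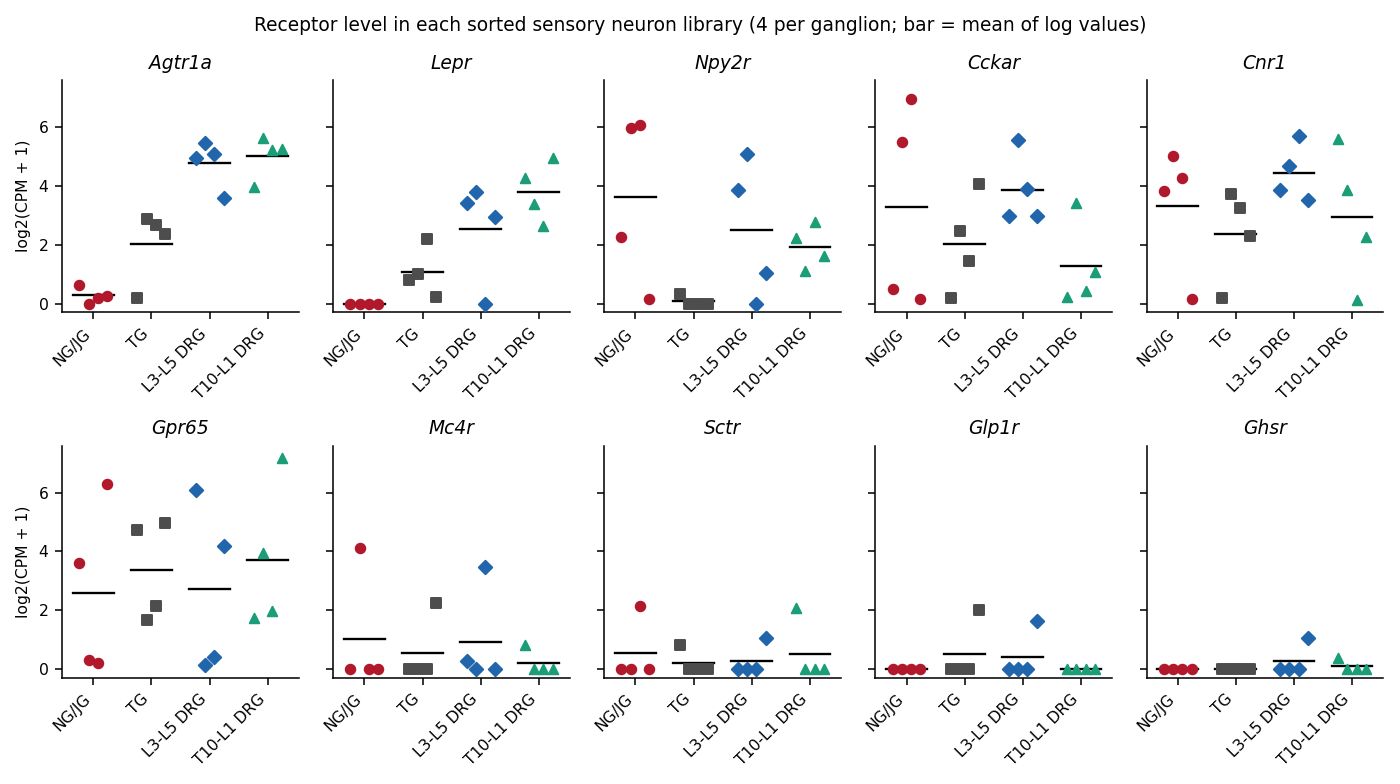
Each panel plots one receptor as log2(CPM + 1) in every library, by ganglion (red circles NG/JG, grey squares TG, blue diamonds L3–L5 DRG, green triangles T10-L1 DRG), and the bar is the mean of the 4 log values. *Agtr1a* is near 0 in all 4 NG/JG libraries and high in all 8 dorsal root ganglion libraries, whereas *Cckar*, *Npy2r*, *Cnr1* and *Gpr65* each range from near 0 to high within NG/JG.

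The question of whether these receptors set NG/JG apart was put in one contrast, NG/JG against the mean of the other 3 ganglia, over all 16 libraries. Of the 10 receptors, 6 had enough reads to be tested, and *Glp1r*, *Ghsr*, *Sctr* and *Mc4r* did not. *Agtr1a* fell in NG/JG, and it was the only member that passed edgeR's quasi-likelihood test at an adjusted p under 0.05. Over all 14236 genes tested, 0.829% were called, 0.583% lower in NG/JG. No member was called higher there. With DESeq2, which called 10.5% of genes, *Agtr1a*, *Lepr* and *Npy2r* passed, the first pair lower and *Npy2r* higher in NG/JG, and edgeR's likelihood-ratio test called the same 3 genes and 7.73% of all genes. Nothing in the labels says that the 4 libraries of a ganglion are separate animals, so the p-values measure the spread between these libraries.

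**Figure D2:**
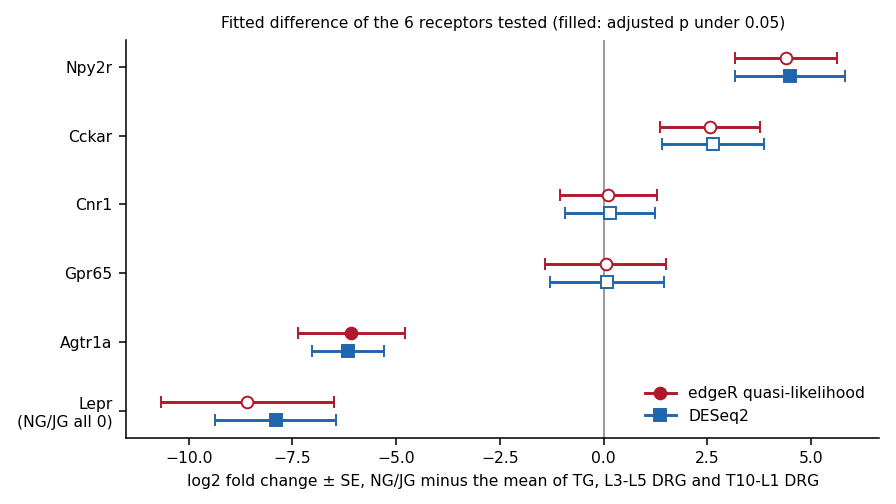
The points are fitted log2 fold changes of the 6 tested receptors in NG/JG against the mean of the other 3 ganglia, with their SE as bars, from edgeR's quasi-likelihood fit (red circles) and DESeq2 (blue squares), filled where the adjusted p was under 0.05. *Agtr1a* is filled in both fits at -6.08 and -6.16, *Lepr* and *Npy2r* only in DESeq2, and the *Lepr* position depends on the fit's handling of 4 NG/JG libraries at 0.

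*Agtr1a* encodes the main angiotensin II receptor, through which the hormone raises blood pressure and acts on sensory and autonomic neurons. The NG/JG libraries 1 to 4 had 4, 0, 1 and 2 *Agtr1a* reads, and only NG/JG 1 exceeded the floor. In L3–L5 DRG the counts were 308, 436, 401 and 53, and in T10-L1 DRG 95, 514, 439 and 493. TG libraries had 1, 32, 31 and 24. Every dorsal root ganglion library was thus above every NG/JG and every TG library in CPM, and TG overlapped NG/JG only through TG 1. Mean CPM was 34.1 ± 14.3 (SD, n = 4) in T10-L1 DRG, 29.4 ± 13.4 in L3–L5 DRG, 3.99 ± 2.71 in TG and 0.225 ± 0.237 in NG/JG. Over all genes tested, 6.22% had all NG/JG libraries below all L3–L5 DRG libraries and 7.67% below all T10-L1 DRG libraries, and for TG the shares were 11.1% and 12.3%.

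The fitted log2 difference of *Agtr1a* in NG/JG against the mean of the other 3 ganglia was -6.08 (SE 1.29, edgeR adjusted p = 0.0323). DESeq2 gave -6.16 (SE 0.866, adjusted p = 3.78e-10). Leaving out each library in turn kept the value between -6.93 and -5.66, but the edgeR adjusted p ran from 0.00795 to 0.0676, and 8 of the 16 omissions ended the call: TG 3, TG 4, NG/JG 4, L3–L5 DRG 1, L3–L5 DRG 2 and T10-L1 DRG 2, 3 and 4. In the fits of single pairs of 8 libraries, *Agtr1a* was lower in NG/JG than in L3–L5 DRG by a log2 difference of -6.83 (SE 1.60, edgeR adjusted p = 0.168) and than in T10-L1 DRG by -7.10 (SE 1.49, adjusted p = 0.115), neither of which passed. DESeq2 passed both, with adjusted p of 3.58e-09 and 8.30e-12. In bulk libraries such as these, fewer cells that express a receptor and less of its RNA per cell cannot be told apart.

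*Agtr1a* has a close copy in rodents, *Agtr1b*, so it was checked whether 50-base reads can separate them. *Agtr1a* lies on chromosome 13 at 30428310 to 30474736 (mm9, plus strand) with 4 annotated exon blocks, and *Agtr1b* on chromosome 3 at 20213395 to 20266099 (minus strand). Neither they nor the other 9 members overlap another annotated gene. Their coding sequences differ at 99 of 1080 bases (90.8% identity), and 33 of the 1031 windows of 50 bases in the coding sequence are identical between the pair. Over its whole transcript 1.53% of the *Agtr1a* windows also occur in *Agtr1b*, and in no other gene. A stretch of coding exon that tells them apart is shown from both genes, at chr13:30473796-30473845 and chr3:20214340-20214389, written on each gene's strand with the 13 differing bases in capitals.
Agtr1a: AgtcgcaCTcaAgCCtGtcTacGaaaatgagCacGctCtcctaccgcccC
Agtr1b: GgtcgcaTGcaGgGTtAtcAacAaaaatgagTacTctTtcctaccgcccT
*Agtr1b* counts were 0 in all NG/JG libraries, 0, 4, 0 and 5 in TG, 27, 49, 297 and 29 in L3–L5 DRG and 52, 0, 60 and 17 in T10-L1 DRG. The copy was therefore low where *Agtr1a* was low, and T10-L1 DRG 2, with 514 *Agtr1a* reads, had none of it.

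Likeness between genes, here and below, was the Pearson r of log2(CPM + 1) over the 16 libraries, with CPM scaled further by edgeR's TMM normalization factors. Out of 14236 genes, those most like *Agtr1a* were *Syt6* (Pearson r = 0.970), *Mrgprd* (0.965) and *Rbm11* (0.937). *Syt6* encodes a synaptotagmin, *Rbm11* an RNA-binding protein, and *Mrgprd* a receptor of nonpeptidergic nociceptors that innervate the skin. These correlations are across libraries that share a ganglion and are given as a description. *Mrgprd* had 2934, 8139, 5333 and 120 reads in L3–L5 DRG, then 155, 2047, 3759 and 2053 in T10-L1 DRG, 3, 249, 106 and 156 in TG and 5, 6, 14 and 2 in NG/JG. The lowest libraries of their ganglia for *Mrgprd*, L3–L5 DRG 4 and T10-L1 DRG 1, were also the lowest for *Agtr1a*, and TG 1 was the lowest of TG for both.

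Angiotensin receptors are also known from vascular mural cells, and one mural marker followed the ganglia in the same direction. *Rgs5*, a pericyte gene, had 1, 2, 1 and 1 reads in NG/JG, 156, 239, 104 and 191 in TG, 554, 2, 306 and 1023 in L3–L5 DRG and 1686, 950, 1089 and 2517 in T10-L1 DRG. *Agtr1a* and *Rgs5* each had at most 4 reads in every NG/JG library and were over the floor in every T10-L1 DRG library. Library L3–L5 DRG 2 had 2 *Rgs5* and 4 *Acta2* reads beside 436 of *Agtr1a*, and TG 1 had 156 *Rgs5* reads beside 1 of *Agtr1a*. Over the 16 libraries r between *Agtr1a* and *Rgs5* was 0.627. The summed level of the 6 mural markers was 51.1 to 168 CPM in NG/JG, 62.8 to 434 in TG, 265 to 1202 in T10-L1 DRG, and L3–L5 DRG had 29.2 to 1257. The number of genes with reads was also lowest in NG/JG. The part of mural cells and of the number of genes with reads in the *Agtr1a* difference was not tested.

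**Figure D3:**
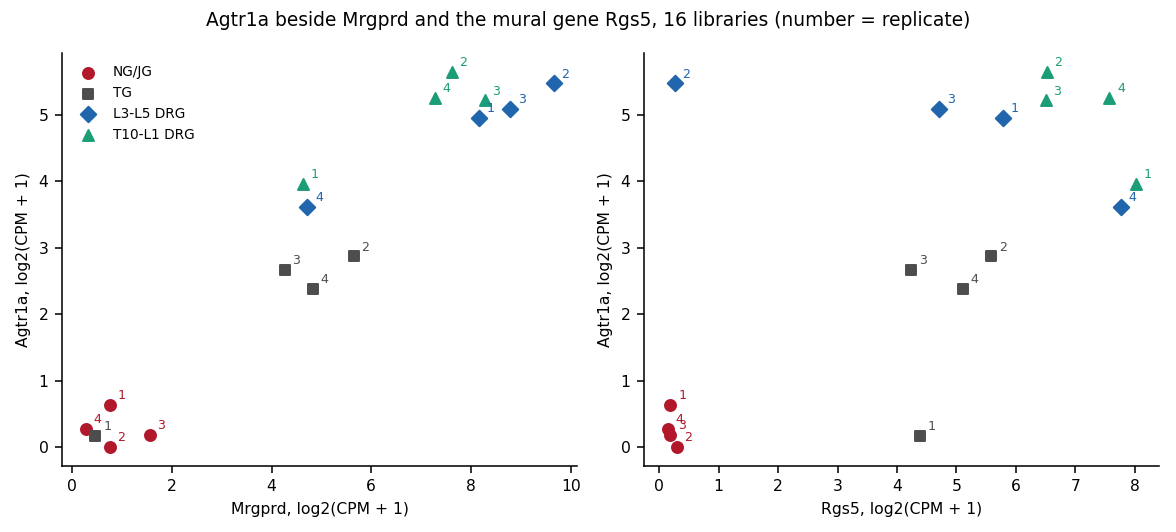
Both panels plot *Agtr1a* on the vertical axis as log2(CPM + 1), against *Mrgprd* on the left and the mural gene *Rgs5* on the right, with one point per library, coloured by ganglion and numbered by replicate. *Agtr1a* rises with *Mrgprd*, which was picked for its likeness to *Agtr1a*, across all 16 libraries. On the right, both genes are low in NG/JG and present in all T10-L1 DRG libraries. L3–L5 DRG 2 has *Agtr1a* at 43.3 CPM with 2 *Rgs5* reads, and TG 1 has *Rgs5* with 1 *Agtr1a* read.

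*Lepr* encodes the receptor of the fat hormone leptin, which signals through JAK and STAT3. It had 0 reads in all 4 NG/JG libraries, 6, 5, 21 and 1 in TG, 100, 129, 0 and 32 in L3–L5 DRG and 120, 100, 63 and 397 in T10-L1 DRG. T10-L1 DRG lay above TG and NG/JG without overlap, and L3–L5 DRG overlapped both because its library 3 had none. TG did not overlap NG/JG either, though TG 4 had only 1 read, which is under the floor. Over all genes tested, 5.17% had all NG/JG libraries below all TG libraries, and 7.67% had them below all T10-L1 DRG libraries. The share with all TG libraries below all T10-L1 DRG libraries was 12.3%. Mean CPM was 15.7 ± 10.9 in T10-L1 DRG, 7.32 ± 5.47 in L3–L5 DRG, 1.38 ± 1.52 in TG and 0 in NG/JG. Against the NG/JG floor of 3 reads per library, these means were at least 42.3-fold, 19.7-fold and 3.73-fold higher, and the mean of the 3 ganglia at least 21.9-fold. The TG bound rests on TG 3, without which it was 1.73-fold.

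The NG/JG difference of *Lepr* missed the edgeR threshold (adjusted p = 0.0673) and passed in DESeq2 (adjusted p = 4.74e-06). It also passed edgeR when TG 1 (adjusted p = 0.0457, 2.76% of genes called) or L3–L5 DRG 3 (0.0409, 0.718% called) was left out. Between TG and T10-L1 DRG the log2 difference was -3.14 (SE 1.11, edgeR adjusted p = 0.128, DESeq2 adjusted p = 0.00839). The closest patterns were those of *Oas1b* (r = 0.913), *Manba* (0.850) and *Gabra3* (0.849), an interferon-induced gene, a lysosomal mannosidase and a GABA-A receptor subunit. With *Agtr1a* r was 0.742, and with the mural genes *Acta2* and *Rgs5* 0.628 and 0.616. *Lepr* and *Rgs5* were both under the floor in all NG/JG libraries and over it in all T10-L1 DRG libraries. L3–L5 DRG 2, with almost no *Rgs5*, had 129 *Lepr* reads. The part of mural cells in the *Lepr* difference was not tested.

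*Npy2r* encodes the Y2 receptor, the main receptor for the cleaved form of peptide YY. NG/JG libraries had 27, 538, 485 and 1 *Npy2r* reads, L3–L5 DRG 139, 337, 0 and 5, T10-L1 DRG 24, 12, 71 and 28, and TG 2, 0, 0 and 0. TG was the only ganglion with no library over the floor, and T10-L1 DRG was the only one with all 4 over it. Mean CPM was 33.0 ± 36.0 in NG/JG, followed by L3–L5 DRG at 12.01 ± 15.6, T10-L1 DRG at 3.19 ± 2.05 and TG at 0.0635 ± 0.127. With 2 reads in TG, the pooled counts gave a ratio of 391 (95% counting interval 108 to 3234) for NG/JG against TG, 158 (43.5 to 1309) for L3–L5 DRG and 38.8 (10.5 to 324) for T10-L1 DRG. These intervals treat reads as independent and leave out the spread between libraries, so they do not bound the difference between ganglia. Each ratio leaned on the library with the most *Npy2r* reads: it was 261 without NG/JG 2, 64.9 without L3–L5 DRG 2 and 25.8 without T10-L1 DRG 3. All TG libraries lay below all T10-L1 DRG libraries, as they did for 12.3% of all genes tested. TG overlapped NG/JG through NG/JG 4 and L3–L5 DRG through library 3.

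The NG/JG difference of *Npy2r* was 4.40 on the log2 scale (SE 1.24, edgeR adjusted p = 0.0901), and it passed in DESeq2 at 4.50 (SE 1.32, adjusted p = 0.0105). The value rests in part on TG, where 2 reads were counted: against L3–L5 DRG alone it was 1.52 (SE 1.93, edgeR adjusted p = 0.999) and against T10-L1 DRG alone 3.38 (SE 1.62, adjusted p = 0.919). Against TG alone the gene did not reach the minimum of edgeR's filter, and DESeq2 gave an adjusted p of 0.000811. Over the 16 omissions of one library the value ran from 3.79 to 5.32, and leaving out NG/JG 1 brought the edgeR adjusted p to 0.0464 (3.64% of genes called). Its closest patterns were weaker than those of the other members, with r = 0.798 for *Stk11*, 0.794 for *Man2c1* and 0.787 for *Wdr4*, which are expressed in many cell types.

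*Cckar*, the cholecystokinin A receptor through which the gut hormone slows feeding, had 3, 388, 889 and 1 reads in NG/JG. It had 71, 463, 168 and 33 reads in L3–L5 DRG, 1, 23, 10 and 89 in TG and 1, 101, 4 and 15 in T10-L1 DRG. Libraries NG/JG 2 and 3 held nearly all of its NG/JG reads, as they did for *Npy2r*, and L3–L5 DRG was the only ganglion with all 4 libraries over the floor. Mean CPM was 41.9 ± 57.8 in NG/JG, followed by L3–L5 DRG at 18.4 ± 18.6, TG at 5.50 ± 6.99 and T10-L1 DRG at 2.80 ± 4.56, and every pair of ganglia overlapped. The NG/JG difference was 2.57 on the log2 scale (SE 1.21, edgeR adjusted p = 0.283, DESeq2 adjusted p = 0.176), and it ran from 1.07 to 3.30 as single libraries were left out.

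Over the 16 libraries, *Cckar* was most like *Slc7a4* (r = 0.918), *Zfp867* (0.893) and *Dcaf15* (0.831), a transporter-like protein, a zinc finger protein and a ubiquitin ligase subunit. *Cckar* and *Npy2r* had r = 0.557 with each other. The uneven NG/JG libraries all had *Htr3a*, at 1037, 3297, 7262 and 5437 reads. *Slc17a6*, the vesicular glutamate transporter of most sensory neurons, had 420, 1583, 2263 and 2 reads in the same libraries, and the nodose purinergic receptor gene *P2rx2* had 1304, 323, 6998 and 1. NG/JG 4, with 1 read each of *Cckar*, *Npy2r* and *Cnr1*, was therefore also at or under the floor for *Slc17a6* and *P2rx2*, though it had 5437 *Htr3a* and 12169 *Snap25* reads. Across NG/JG, libraries 2 and 3 were high in *Slc17a6*, *Cckar* and *Npy2r* together.

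*Glp1r*, the receptor of the incretin peptide, was over the floor only in TG 4 with 17 reads and L3–L5 DRG 4 with 10. All NG/JG and all T10-L1 DRG libraries had 0. The floor of 3 reads per library allows a mean of up to 0.371 CPM in NG/JG, and the TG mean of 0.746 ± 1.49 CPM, which rests on one library, was at least 2.01-fold above it. The other 3 TG libraries had 0 as well, so no difference of *Glp1r* between ganglia was detectable at this depth.

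*Sctr*, the secretin receptor, was over the floor in 1 library of each ganglion, with 6 reads in TG 1, 25 in NG/JG 3, 5 in L3–L5 DRG 4 and also 21 in T10-L1 DRG 1, and had 0 reads in the other 12. *Ghsr*, the ghrelin receptor, had 5 reads in L3–L5 DRG 4, a further 2 in T10-L1 DRG 1 and 0 in the other 14 libraries. L3–L5 DRG 4 was the library with the most genes with reads, 18571, and it held 9 of the 10 receptors over the floor, more than any other. Its counts are among the few behind *Glp1r*, *Sctr* and *Ghsr*, and without it *Ghsr* was over the floor nowhere.

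*Mc4r*, the melanocortin 4 receptor that restrains feeding, had 143 reads in NG/JG 2 and also 122 in L3–L5 DRG 3, 21 in TG 4, 5 in T10-L1 DRG 1 and 2 in L3–L5 DRG 1. The other 11 libraries had 0, so a single library carried each ganglion. Its mean CPM was 4.07 ± 8.14 in NG/JG, followed by 2.56 ± 4.99 in L3–L5 DRG, 0.922 ± 1.84 in TG and 0.191 ± 0.382 in T10-L1 DRG, and these overlapped. *Mrap2* encodes an accessory protein of melanocortin receptors and of *Ghsr*, and it had 1, 727, 1503 and 806 reads in NG/JG. It had 11, 5, 9 and 3 in TG, 27, 0, 110 and 3 in L3–L5 DRG and 1, 1, 1095 and 4 in T10-L1 DRG. *Mrap2* was thus high in 3 of 4 NG/JG libraries, only one of which had *Mc4r* reads (log2 difference 4.39, edgeR adjusted p = 0.102, DESeq2 adjusted p = 0.0177).

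*Cnr1*, the neuronal cannabinoid receptor, was spread over all ganglia. Its counts were 94, 279, 132 and 1 in NG/JG, 1, 62, 49 and 22 in TG, 140, 249, 613 and 50 in L3–L5 DRG and 311, 141, 1 and 51 in T10-L1 DRG. A library with 1 read occurred in each ganglion except L3–L5 DRG. Mean CPM was 24.8 ± 18.2 in L3–L5 DRG, followed by 16.2 ± 21.6 in T10-L1 DRG, 15.8 ± 13.1 in NG/JG and 6.15 ± 5.27 in TG, and all pairs overlapped. The NG/JG difference was 0.12 on the log2 scale (SE 1.17, edgeR adjusted p = 0.983), and the largest pairwise difference, TG against L3–L5 DRG, was -1.59 (SE 1.11, adjusted p = 0.507).

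The patterns closest to *Cnr1* were *Tmeff1* (r = 0.884), *Chd5* (0.847) and *Celf6* (0.844), which are known mainly from neurons, and each of them had at most 1 read in TG 1 and NG/JG 4, where *Cnr1* had 1 read. T10-L1 DRG 3, with 1 *Cnr1* read, had 2.38 CPM of *Tmeff1* and 12.8 CPM of *Chd5*. With the neuropeptide gene *Tac1* r was 0.458.

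*Gpr65* encodes a proton-sensing receptor that is known both from vagal neurons of the gut wall and from leukocytes. It had 80, 2, 1 and 753 reads in NG/JG, 200, 11, 20 and 173 in TG, 692, 1, 4 and 82 in L3–L5 DRG and 15, 152, 35 and 1901 in T10-L1 DRG. Each ganglion held low and high libraries, and NG/JG 2 and 3, the libraries rich in *Cckar* and *Npy2r*, had almost none. Mean CPM was 40.6 ± 68.2 in T10-L1 DRG, 22.3 ± 37.4 in NG/JG, 21.3 ± 31.7 in L3–L5 DRG and 15.3 ± 14.6 in TG, all overlapping. The NG/JG difference was 0.05 on the log2 scale (SE 1.46, edgeR adjusted p = 0.996), and without NG/JG 4 it was -2.63 (adjusted p = 0.541).

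Of 14236 genes, the one most like *Gpr65* over the 16 libraries was *Ptprc* (r = 0.938), which encodes the leukocyte antigen CD45, followed by *Mgl2* (0.906), a lectin of macrophages and dendritic cells, and *Plbd1* (0.888). *Ptprc* had 590, 23, 2 and 952 reads in NG/JG, 770, 83, 99 and 245 in TG, 1326, 17, 8 and 217 in L3–L5 DRG and 48, 182, 177 and 3569 in T10-L1 DRG. The libraries with the most *Gpr65* reads in NG/JG and in both dorsal root ganglia were those with the most *Ptprc*, and in TG libraries 1 and 4 led for both. The summed level of the 8 macrophage markers ran from 19.9 to 3292 CPM in NG/JG, 2207 to 8049 in TG, 690 to 13987 in T10-L1 DRG, and L3–L5 DRG had 67.7 to 6090. At least 5 of the 8 were over the floor in every library, and all 8 in every library outside NG/JG. NG/JG 4 was uneven: it had 753 *Gpr65*, 952 *Ptprc* and 916 *Cd68* reads but 13 of *Csf1r*, 2 of *Cx3cr1*, 5 of *C1qa* and 12 of *C1qb*. All 8 markers, *Aif1* and *Lyz2* included, summed to 288 CPM there, with 6 over the floor. Over the 16 libraries, r with *Gpr65* was 0.769 for *Cd68*, 0.708 for *Lyz2* and 0.564 for *Csf1r*. What part of the *Gpr65* reads came from leukocytes was not tested.

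**Figure D4:**
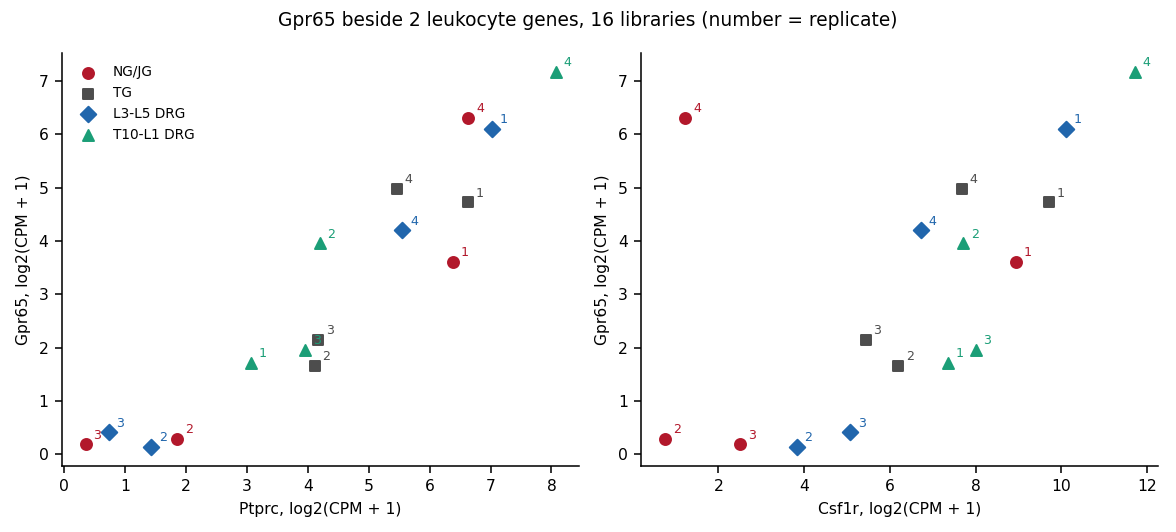
Both panels plot *Gpr65* on the vertical axis as log2(CPM + 1), against *Ptprc* on the left and the macrophage gene *Csf1r* on the right, with one point per library, coloured by ganglion and numbered by replicate. *Gpr65* rises with *Ptprc* in all 4 ganglia (r = 0.938, 16 libraries), and on the right NG/JG 4 lies apart with high *Gpr65* and little *Csf1r* (r = 0.564). Both r were taken from CPM scaled by TMM factors, while the points show CPM without them.

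The leading receptor differed between libraries. *Gpr65* made up 99.3% of the members' summed CPM in NG/JG 4 and 92.2% in TG 1, where 1 and 3 of the 10 members were over the floor. *Cckar* led in NG/JG 3 with 58.0% and *Npy2r* in NG/JG 2 with 39.9%. *Agtr1a* led in T10-L1 DRG 2 and 3 with 50.4% and 71.6%. The summed level over the 10 members ran from 22.5 CPM in TG 3 to 216 CPM in T10-L1 DRG 4, and libraries of NG/JG ran from 28.9 to 212 CPM.

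Each pair of ganglia was also compared on its own 8 libraries, where 3 to 6 of the 10 members had enough reads to be tested, and edgeR called 0 of those in all 6 pairs. In NG/JG against TG only *Cckar*, *Cnr1* and *Gpr65* were tested. A fit of all 16 libraries gave *Agtr1a*, *Lepr* and *Npy2r* adjusted p-values of 0.0602, 0.0716 and 0.0535 in that pair. The share of all tested genes called was 0.051% for NG/JG against TG, 0% for NG/JG against L3–L5 DRG, 0.0322% for NG/JG against T10-L1 DRG, 0% for TG against L3–L5 DRG, 5.87% for TG against T10-L1 DRG and 0% for L3–L5 against T10-L1 DRG. At an unadjusted p under 0.05 edgeR had *Agtr1a* in NG/JG against L3–L5 DRG and in TG against L3–L5 DRG, and *Agtr1a* with *Lepr* when NG/JG or TG was compared with T10-L1 DRG, each time with the lower value in NG/JG or TG. In the other 2 pairs none of the 3 and 6 members tested reached that level. Over all tested genes, the shares at that level were 6.04%, 18.2%, 5.91% and 21.6% in these 4 comparisons, 10% in NG/JG against TG and 6.07% between the dorsal root ganglia. The 758 genes behind the 5.87% depended on single libraries: 0 or 1 were called without TG 2, 3 or 4 or T10-L1 DRG 1, 2 or 3, 119 without T10-L1 DRG 4 and 3583 without TG 1. The comparisons share libraries and are not independent of one another.

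DESeq2 called more. Against TG, NG/JG was lower in *Agtr1a* and higher in *Npy2r* (6.39% of genes called), and against L3–L5 DRG and T10-L1 DRG it was lower in *Agtr1a* and *Lepr* (5.67% and 6.3% called). TG was lower than L3–L5 DRG in *Npy2r* (11.3% called) and lower than T10-L1 DRG in *Agtr1a*, *Lepr* and *Npy2r* (15.4% called), while no member was called between L3–L5 and T10-L1 DRG (0.5% called). The likelihood-ratio test of edgeR called *Agtr1a* in NG/JG against L3–L5 DRG (2.39% of genes called), and *Agtr1a* and *Lepr* when NG/JG (2.69%) or TG (11.3%) was compared with T10-L1 DRG. It called no tested member in NG/JG against TG (2.1%), TG against L3–L5 DRG (6.65%) or between the dorsal root ganglia (0.133%).

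TG against the dorsal root ganglia repeated the order of *Agtr1a* at a smaller size. The log2 difference was -2.45 against L3–L5 DRG (SE 1.03, edgeR adjusted p = 0.240) and -2.67 against T10-L1 DRG (SE 0.964, adjusted p = 0.135), and between the dorsal root ganglia it was -0.25 (SE 0.511, adjusted p = 0.932). Leaving out TG 1, whose single read is the lowest of its ganglion, brought the difference from T10-L1 DRG to -2.26 with an edgeR adjusted p of 0.0106, and *Npy2r* then passed too, but so did 26.7% of all genes. Leaving out TG 1 together with L3–L5 DRG 4 gave -2.39 against L3–L5 DRG (edgeR adjusted p = 0.0183), with 19.4% of genes called. *Cckar* in L3–L5 DRG exceeded T10-L1 DRG by 2.73 on the log2 scale (SE 1.29), which did not pass (edgeR adjusted p = 0.790).

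The receptors were then set beside 108 related genes in 8 lists, of which 63 had enough reads for the 16-library fit. edgeR called 0 of the 63 in NG/JG against the mean of the other 3 ganglia. At an unadjusted p under 0.05, 8 were higher and 15 lower in NG/JG, where 17.1% of all genes reached that level (815 higher and 1618 lower). DESeq2 gave 75 related genes an adjusted p and called 3 higher and 11 lower. Over all 15374 genes it tested, it called 10.5% (340 higher and 1280 lower). The likelihood-ratio test called 3 higher and 6 lower of the 63, and 7.73% of all genes (242 higher and 858 lower).

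Among 28 other receptors of gut and pancreatic peptides, 22 had all NG/JG libraries at or under the floor. Of all 22609 symbols, only 7886 to 11707 were over the floor in an NG/JG library. The share of them at or under it in every NG/JG library was not counted. Of the 28, 11 were tested, and at an unadjusted p under 0.05, 2 were higher and 5 lower in NG/JG. *Cckbr*, the cholecystokinin B receptor, had 0 to 215 reads in NG/JG, with 2 libraries at 0, and at most 25 elsewhere (log2 difference 4.18, edgeR adjusted p = 0.235). *Bdkrb2*, a bradykinin receptor, had 0 to 259 reads in NG/JG, with 2 libraries at 0, and at most 148 elsewhere (log2 difference 3.51, edgeR adjusted p = 0.271). *Sstr2*, a somatostatin receptor, had 0 reads in NG/JG, 0 to 66 in TG, 1 to 31 in T10-L1 DRG, and L3–L5 DRG had 1 to 577 (edgeR adjusted p = 0.0811, DESeq2 adjusted p = 2.82e-05). *Ntsr2*, a neurotensin receptor, had 0 reads in NG/JG, 1 to 112 in TG, 0 to 30 in T10-L1 DRG, and L3–L5 DRG had 28 to 193 (edgeR adjusted p = 0.0877, DESeq2 adjusted p = 5.70e-05). *Galr1*, a galanin receptor, was also at 0 in NG/JG (0.140 and 0.00442). The most abundant of the list were *Npy1r*, the Y1 receptor, at 8.68 CPM in NG/JG against 12.7 in TG, 22.0 in T10-L1 DRG and 52.9 in L3–L5 DRG, and *Calcrl*, a receptor subunit for CGRP and adrenomedullin, at 13.1, 9.87, 32.3 and 19.4 CPM in the same order of ganglia. Neither of these passed a test.

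In the angiotensin system 8 of 11 genes were tested. *Agtr1b* and *Enpep* were lower in NG/JG at an unadjusted p under 0.05, with 0 reads in all NG/JG libraries. *Enpep* encodes a peptidase that degrades angiotensin II, and its highest count was 247, in T10-L1 DRG. The adjusted p-values of *Agtr1b* and *Enpep* were 0.109 and 0.151 in edgeR and 0.00114 and 0.00545 in DESeq2. *Agtrap* and *Lnpep*, a receptor-binding protein and an aminopeptidase that binds angiotensin IV, were the most abundant of the list, at 58.9 and 59.3 CPM in NG/JG and 46.0 to 77.3 CPM elsewhere. *Agtrap* had 247, 473, 1065 and 1 reads in NG/JG. The NG/JG difference was -0.18 for *Agtrap* and 0.08 for *Lnpep*, with adjusted p-values of 0.949 and 0.965 in edgeR.

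Among receptors related to *Gpr65*, *Gpr132* had 0, 0, 0 and 1 reads in NG/JG and up to 279 elsewhere (edgeR adjusted p = 0.160, DESeq2 adjusted p = 0.00514). *Gpr4*, which senses protons, varied widely within every ganglion (log2 difference -0.85, edgeR adjusted p = 0.885).

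For the endocannabinoid system around *Cnr1*, 7 of 8 genes were tested in the NG/JG contrast. None passed edgeR or DESeq2 after adjustment, and none had an unadjusted edgeR p under 0.05. *Cnr2*, a second cannabinoid receptor, had an unadjusted DESeq2 p under 0.05 (edgeR log2 difference -4.67, SE 2.27, edgeR adjusted p = 0.304). The 7 had a median log2 difference of 0.04 against -0.07 over all genes. *Mgll*, the enzyme that breaks down 2-arachidonoylglycerol, was at 219 ± 36.8 CPM in NG/JG, 488 ± 218 in TG, 155 ± 35.1 in T10-L1 DRG and 228 ± 136 in L3–L5 DRG. *Mgll* was higher in TG than in T10-L1 DRG by 2.05 on the log2 scale (SE 0.400, edgeR adjusted p = 0.0261). *Dagla*, which makes the same lipid, was at 61.4, 98.6, 69.6 and 46.7 CPM in the same order of ganglia.

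Of 18 other receptors of metabolic hormones, 11 were tested. *Crhr2*, a receptor of urocortins, had 320, 47, 77 and 0 reads in NG/JG and at most 67 elsewhere (log2 difference 4.18, edgeR adjusted p = 0.117, DESeq2 adjusted p = 0.0202). *Il6st*, the shared signalling subunit of cytokine receptors related to *Lepr*, and the adiponectin receptor gene *Adipor1* were the most abundant, at 448 and 99.4 CPM in NG/JG. *Adipor1* was at 167, 231 and 219 CPM in TG, L3–L5 and T10-L1 DRG (log2 difference -1.003, edgeR adjusted p = 0.173). *Avpr1a*, a vasopressin receptor, was at 0 in NG/JG and had at most 133 reads elsewhere (adjusted p = 0.201).

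Of 10 nutrient and bile acid receptors only *Sucnr1* and *Gpr81* were tested, and both had 0 reads in NG/JG and at most 31 and 81 elsewhere (edgeR adjusted p = 0.204 and 0.190). The list's most abundant genes came mostly from single libraries: *Gpr119*, a lipid receptor of enteroendocrine cells, had 398 reads in NG/JG 4 and *O3far1*, the long-chain fatty acid receptor, 172 in TG 1. *Gpr119* had at most 1 read in the other NG/JG libraries.

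Most of the hormones themselves had few or no reads. Of 12 ligand and processing genes, the genes of neuropeptide Y, secretin and ghrelin, *Npy*, *Sct* and *Ghrl*, had 0 reads in all 16 libraries, and *Cck* was over the floor only in one TG library with 85. *Pomc*, the precursor of the *Mc4r* ligand, had 2616, 4163, 3398 and 32 reads in TG and 2 to 40 in the other libraries, and was higher in TG than in T10-L1 DRG (log2 difference 8.65, SE 1.44, edgeR adjusted p = 0.0254). The pituitary genes *Prl* and *Gh* had 221 to 49211 and 105 to 2683 reads in the TG libraries and at most 40 and 17 elsewhere, while the pituitary factor *Pou1f1* had 0 reads in all 16, and their part in the *Pomc* difference was not tested. *Pcsk1*, a prohormone convertase, had 159, 1, 1216 and 0 reads in NG/JG (log2 difference 3.37, edgeR adjusted p = 0.201), and *Pcsk2* was at 38.4 CPM there against 45.4 to 116 elsewhere.

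All 18 receptor partners and signalling genes were tested. *Socs3*, the feedback inhibitor of leptin signalling, was at 1647 CPM in NG/JG, 319 in TG, 1478 in T10-L1 DRG and 451 in L3–L5 DRG (NG/JG log2 difference 1.54, edgeR adjusted p = 0.103, DESeq2 adjusted p = 0.0487). *Stat3*, its transcription factor, was lower in TG than in T10-L1 DRG by a log2 difference of -1.72 (SE 0.350, edgeR adjusted p = 0.0285). The summed level of 10 genes of the response to tissue dissociation, such as *Fos* and *Atf3*, was also higher in NG/JG (16264 to 57238 CPM) and T10-L1 DRG (12559 to 41166) than in TG (7952 to 23069) and L3–L5 DRG (3056 to 14481), with overlap, and its part was not tested. *Ramp2* and *Ramp3* encode partners of *Calcrl*. *Ramp2* was higher in TG than in T10-L1 DRG by 1.62 on the log2 scale (SE 0.418, edgeR adjusted p = 0.049), and *Ramp3* had 1 read in NG/JG in all and up to 110 elsewhere (edgeR adjusted p = 0.195). *Gnas*, the stimulatory G protein used by *Glp1r*, *Sctr*, *Mc4r* and *Gpr65*, was at 871 CPM in NG/JG and 443 to 649 elsewhere (log2 difference 0.64, edgeR adjusted p = 0.227). *Mgll*, *Pomc*, *Ramp2* and *Stat3* were the 4 related genes that edgeR called in TG against T10-L1 DRG, out of 51 tested, in a pair where 5.87% of all genes were called, and edgeR called 0 in the other 5 pairs. No gene at all was called there without TG 2, TG 3, T10-L1 DRG 1 or T10-L1 DRG 2, or with the replicate block.

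**Figure D5:**
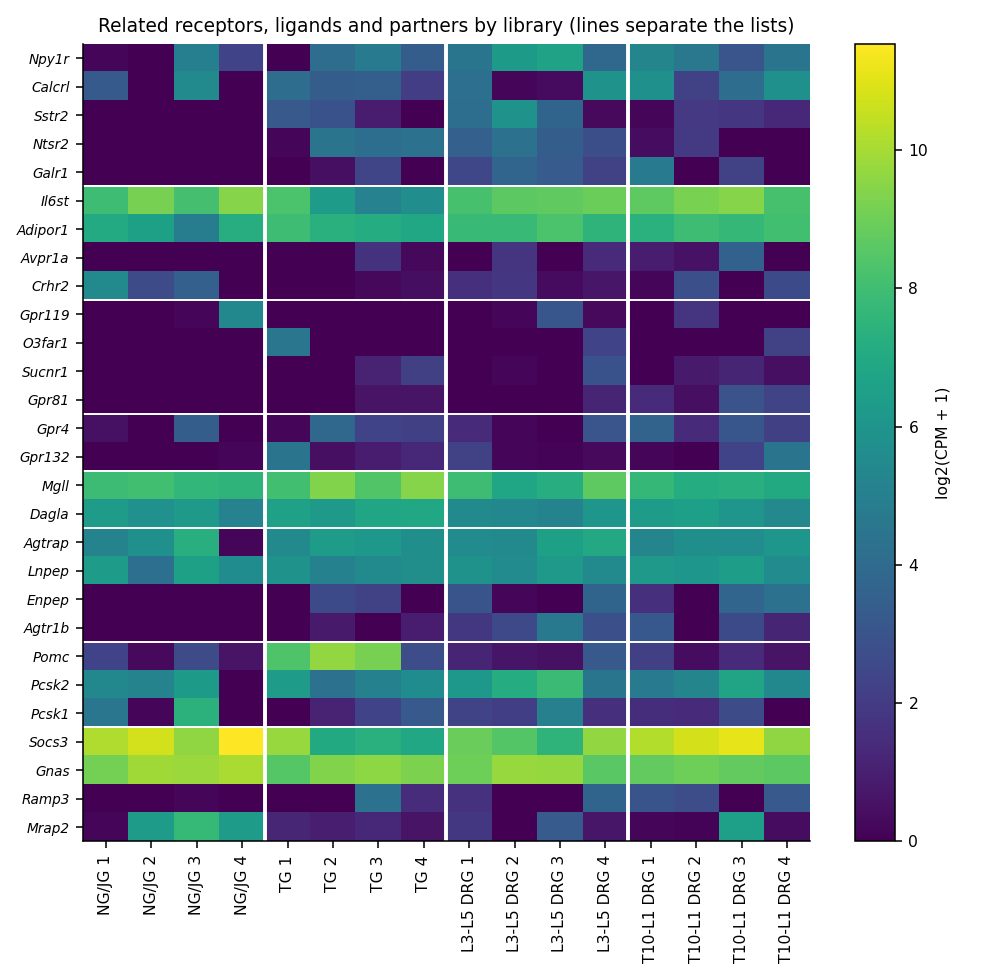
The heat map gives log2(CPM + 1) of 28 related genes that the rule named, in rows, for the 16 libraries in columns, with white lines between the 4 ganglia and between the 8 lists, which follow the order peptide, metabolic, nutrient, acid-sensing, endocannabinoid, angiotensin, ligand and partner. Rows such as *Sstr2*, *Ntsr2*, *Galr1*, *Enpep* and *Agtr1b* are at 0 in all 4 NG/JG columns, while *Mgll*, *Dagla*, *Il6st* and *Gnas* are present in every library.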

How the data were processed

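RNA-seq was performed by the authors on *Pirt*/TdTomato sensory neurons as 50-base single reads of oligo dT SMART-seq2 cDNA, which they aligned to mm9 with TopHat2 (default settings) before counting per gene symbol with HTSeq-count. The versions, the annotation and the strand setting are not given in the sources used here. The deposited values are raw counts of reads per gene, without normalization, and the counter's own rows for uncounted reads (29.6% to 66.6% of uniquely aligned reads outside genes) were left out. CPM used reads on genes. RPKM used the union of exons in GENCODE M1 on NCBIM37, the assembly of mm9.

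Ganglia were compared with edgeR 4.0.16 in R 4.3.3 (TMM factors, filterByExpr, quasi-likelihood test, two-sided, group as the only term, Benjamini-Hochberg over all genes tested, call at 0.05). The study's methods name DESeq for such comparisons, and DESeq2 1.42.0 was an alternative here, as were the likelihood-ratio test, RLE factors, no filter, a replicate block, other sets of libraries in the fit and each library left out. The fits were checked on simulated counts. No 2 libraries of a ganglion agreed within sampling noise.

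The members and gene lists were chosen with earlier results of these data known. Named were all members, the 2 most abundant genes of each related list with up to 3 of the largest differences at an unadjusted p under 0.05, and the 3 genes most like each tested member, and some genes so named are not reported here. The genes called in TG against T10-L1 DRG, *Cck*, *Cckbr*, *Bdkrb2* and the ligands at 0 were named after their values were seen. Figures used Python 3.11.15 and matplotlib 3.10.9.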

Additional observations from a re-analysis of the deposited data

Results flagged for a closer look

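Single libraries far from the other 3 of their ganglion were found in 16 of 35 member and ganglion groups with any reads, by the gap to the nearest library against the whole range (about 1 in 20 by chance for continuous values, a rate that does not apply to sparse counts). In 12 of the groups the other 3 libraries had 0 reads, which puts the ratio at its maximum whatever the count. These were *Glp1r* in TG 4 (2.99 CPM) and L3–L5 DRG 4 (2.11), *Npy2r* in TG 1 (0.254), *Ghsr* in L3–L5 DRG 4 (1.06) and T10-L1 DRG 1 (0.306), *Sctr* in NG/JG 3 (3.46), TG 1 (0.762), L3–L5 DRG 4 (1.06) and T10-L1 DRG 1 (3.21), and *Mc4r* in NG/JG 2 (16.3), TG 4 (3.69) and T10-L1 DRG 1 (0.764). *Mc4r* in L3–L5 DRG 3, at 10.1 CPM, stood above others of at most 0.195 CPM. *Cckar* in T10-L1 DRG 2 was at 9.61 CPM and the other 3 libraries at 0.153 to 1.13. *Gpr65* in NG/JG 4 was at 77.8 CPM against 0.138 to 11.1, and in T10-L1 DRG 4 at 143 CPM against 2.29 to 14.5.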

How the results depend on the processing

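The number of members called in NG/JG against the mean of the other 3 ganglia was 1 in the reported fit, 3 with DESeq2 and with the likelihood-ratio test, 0 with the replicate number as a block, and 0 to 2 as single libraries were left out. *Agtr1a* was -5.87 with the block (adjusted p = 0.115), and without the doubted pair, L3–L5 DRG 4 and TG 1 (chosen after seeing the data), it still passed. NG/JG 4, the library with the fewest genes with reads, stayed in that fit. Without NG/JG 4 alone the edgeR adjusted p of *Agtr1a* was 0.0647. For the pairs of ganglia, where 0 were called, DESeq2 called 2 in NG/JG against TG, 2 against L3–L5 DRG and 2 against T10-L1 DRG, and 1 and 3 in TG against L3–L5 and T10-L1 DRG. The likelihood-ratio test called 1, 2 and 2 in NG/JG against L3–L5 DRG, NG/JG against T10-L1 DRG and TG against T10-L1 DRG. A fit of all 16 libraries called 1 in each of the first 2, where 83 and 54 of 14236 genes were called. The fit without the doubted pair called 1 in TG against L3–L5 DRG, with 19.4% of genes called. Single omissions called 0 to 2 in TG against T10-L1 DRG, the 2 being without TG 1, where 26.7% of genes were called. The sign of values near 0 turned: *Cnr1* in NG/JG was -0.0149 with the 12 other libraries as one group, -0.34 with the block, -0.10 without the doubted pair and -0.44 to 0.62 over single omissions, *Gpr65* -0.0534 (12 others as one group), -1.56 (block) and -2.63 to 1.00, and *Agtr1a* between the dorsal root ganglia -0.51 to 0.0215. The cause was not tested. The labels do not say that same-numbered libraries are paired. Of 24 such pairs from different ganglia, 6 had deviations correlated over 0.1 (mean r = 0.0543), against 7 of 72 pairs of other numbers (mean r = -0.0181). The rule for pairing, every pair over 0.1, was not met. So strict a rule cannot exclude pairing, and whether same-numbered libraries are paired stays unknown. *Glp1r*, *Ghsr*, *Sctr* and *Mc4r* had too few reads for the edgeR fit, and levels under 3 reads per library could not be detected.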

Other observations

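Other related genes were also carried by few libraries, and they were picked after their values were seen. *Agtr2*, the second type of angiotensin receptor, had 40 reads in a single NG/JG library and at most 1 in any library outside NG/JG. *Cnr2*, the cannabinoid receptor of immune cells, had up to 82 reads in T10-L1 DRG and 60 in L3–L5 DRG, at most 5 in TG and at most 1 in NG/JG. *Prlr*, the prolactin receptor, had at most 2 reads in NG/JG, 21 in TG, 38 in T10-L1 DRG and 88 in L3–L5 DRG. *Insr*, the insulin receptor, and *Ghr*, the growth hormone receptor, were more even, at 43.0 ± 31.7 and 53.3 ± 62.7 CPM (SD, n = 4) in NG/JG and 23.8 to 54.5 and 18.3 to 43.6 CPM as means of the other ganglia. In NG/JG against the mean of the other ganglia neither edgeR nor DESeq2 called *Cnr2*, *Prlr*, *Insr* or *Ghr*, while *Agtr2* was below edgeR's filter and had no p in DESeq2.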
